A study of Drosophila melanogaster with 3 samples.

Results

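Near intergenic peaks are the part of the Tinman binding map that lies outside protein-coding genes but close to 1 of their starts. They were chosen by position alone. A peak counts as near intergenic if its summit lies in no protein-coding transcript and more than 500 and at most 5000 bp from the nearest protein-coding transcription start site (TSS). The rule found 495 of the 5508 peaks that passed the irreproducible discovery rate (IDR) analysis, called IDR peaks here, which is 8.99%. Whole embryos of Drosophila melanogaster were used for the ChIP-seq, from a transgenic line with a C-terminal GFP on tin. Embryos of both sexes, 0 to 16 h old, were pooled, and the chromatin was sonicated to 200 to 800 bp and precipitated with an antibody that the labels' description calls anti-GFP and their antibody field calls tin. The study has 1 group of 3 biological replicates, all of this genotype and age, and no second condition. All tissues of the embryo enter each sample, 1 transgenic line stands for the protein, and control libraries are not analysed here.

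Tinman is an NK-2 class homeodomain protein that the dorsal mesoderm and the heart require. It binds a short site with the core AAGTG, and in the embryo it works at enhancers together with other factors, among them the MADS-box protein Mef2, the GATA factor Pannier, T-box factors of the Dorsocross group and the forkhead factor Biniou. In the compact fly genome many enhancers lie in the first kilobases upstream of a gene, in the spacer between it and its neighbour. Other proteins also occupy such spacers, such as CTCF, which binds insulators and domain borders.

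The deposited files give, per replicate, a ranking of candidate binding entries that is 30000 long for replicates 1 and 2 and 24711 long for replicate 3. They also include a list of the pooled replicates with 30000 entries, of which the IDR peaks are the 5508 with the highest score. The score is a value of the authors' peak caller and is used here only for ranks within a list, in which rank 1 has the highest score. Since no counts of reads come with the lists, the depth is unknown. The near intergenic peaks were set against 3 other sets of IDR peaks, namely 437 remote intergenic peaks with a summit over 5000 bp from a TSS, 1160 near intronic peaks at the same distances as the near intergenic ones, and 2716 promoter peaks with a summit at most 500 bp from a TSS. Tests count peaks, so a p-value tells of differences between sets of peaks and not of the spread between embryos.

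The DNA under the summits is shown first, as 101 bp centred on the summit on the forward strand of the RefSeq Release 6 genome (dm6). Names are those of the gene with the nearest TSS. The 3 summits with the highest score are given to show what the strongest near intergenic binding sits on, and they hold none of the 14 motifs searched.
DNAlig3 chr3R:12403074-12403174: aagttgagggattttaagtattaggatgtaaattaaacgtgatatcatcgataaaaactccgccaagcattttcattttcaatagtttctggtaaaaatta
CG4004 chrX:12751264-12751364: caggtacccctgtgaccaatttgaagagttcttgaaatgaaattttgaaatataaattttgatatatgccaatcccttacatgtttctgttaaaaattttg
tara chr3R:16222446-16222546: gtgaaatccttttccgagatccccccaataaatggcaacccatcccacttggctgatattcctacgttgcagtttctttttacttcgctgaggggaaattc
The 5 highest-scoring with a Tinman site, TCAAGTG or TTAAGTG on either strand, follow with the site in capitals.
CG17896 chrX:493948-494048: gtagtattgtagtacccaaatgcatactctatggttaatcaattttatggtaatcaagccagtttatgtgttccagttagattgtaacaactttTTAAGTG
Asator chr4:489476-489576: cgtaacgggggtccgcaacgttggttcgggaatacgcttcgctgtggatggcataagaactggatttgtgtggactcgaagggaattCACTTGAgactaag
CG15429 chr2L:4350792-4350892: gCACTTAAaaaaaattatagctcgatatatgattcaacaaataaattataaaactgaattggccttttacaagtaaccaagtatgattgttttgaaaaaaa
CG43347 chrX:10620769-10620869: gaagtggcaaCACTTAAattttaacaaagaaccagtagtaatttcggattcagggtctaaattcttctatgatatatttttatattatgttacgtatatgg
RpS15Aa chrX:13334989-13335089: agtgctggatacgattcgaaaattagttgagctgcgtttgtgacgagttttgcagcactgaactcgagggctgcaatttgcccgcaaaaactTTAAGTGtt
Mef2 sites, in capitals, were met more often at summits than in flanks, and 3 of the 5 highest-scoring summits that hold one are given.
foxo chr3R:14053571-14053671: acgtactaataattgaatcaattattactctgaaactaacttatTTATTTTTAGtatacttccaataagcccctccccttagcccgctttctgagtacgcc
l(3)neo38 chr3R:11780308-11780408: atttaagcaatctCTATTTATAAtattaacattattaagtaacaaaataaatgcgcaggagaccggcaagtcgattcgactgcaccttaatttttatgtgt
aop chr2L:2180233-2180333: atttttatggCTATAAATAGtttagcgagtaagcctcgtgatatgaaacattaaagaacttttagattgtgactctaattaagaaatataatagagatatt
Next are a homeodomain core, TAATTA, and 3 CTCF cores, AGGTGGCG or its reverse complement, again in capitals.
by chr3R:9534281-9534381: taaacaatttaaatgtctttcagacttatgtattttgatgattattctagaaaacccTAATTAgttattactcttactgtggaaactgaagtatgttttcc
jp chr2L:9567452-9567552: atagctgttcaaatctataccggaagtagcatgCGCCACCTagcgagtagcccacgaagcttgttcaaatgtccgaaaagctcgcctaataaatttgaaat
sbr chrX:10832515-10832615: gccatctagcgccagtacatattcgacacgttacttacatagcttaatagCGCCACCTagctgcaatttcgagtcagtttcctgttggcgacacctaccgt
wgn chrX:18635417-18635517: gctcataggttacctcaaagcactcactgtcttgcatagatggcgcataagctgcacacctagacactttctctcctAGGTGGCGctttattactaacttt
The last pair hold ACTGAGA or its reverse complement, the 7-mer that rose most from flanks to summits, in capitals.
Cpr76Ba chr3L:19516679-19516779: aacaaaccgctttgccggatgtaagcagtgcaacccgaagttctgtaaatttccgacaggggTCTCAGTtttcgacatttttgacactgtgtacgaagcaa
zfh2 chr4:497825-497925: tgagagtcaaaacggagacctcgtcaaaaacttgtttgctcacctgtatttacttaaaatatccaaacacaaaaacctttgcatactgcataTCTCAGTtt

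The summits sat in AT-rich DNA, and that is visible in the printed windows. The median GC content was 33.7% over the 101 bp at near intergenic summits and 42.6% over the flanks 500 bp to each side. The summit window held less GC than its flanks at 368 of the 495 peaks (74.3%). Single windows ran from 14.9% to 71.3% GC. The other sets had like medians, at 32.7% in remote intergenic, 32.7% in near intronic and 36.6% in promoter summits. Windows with a CTCF core had a median of 45.5% GC, against 39.6% in windows with a DRE, TATCGATA, and 29.7% in windows with a Mef2 site.

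**Figure D1:**
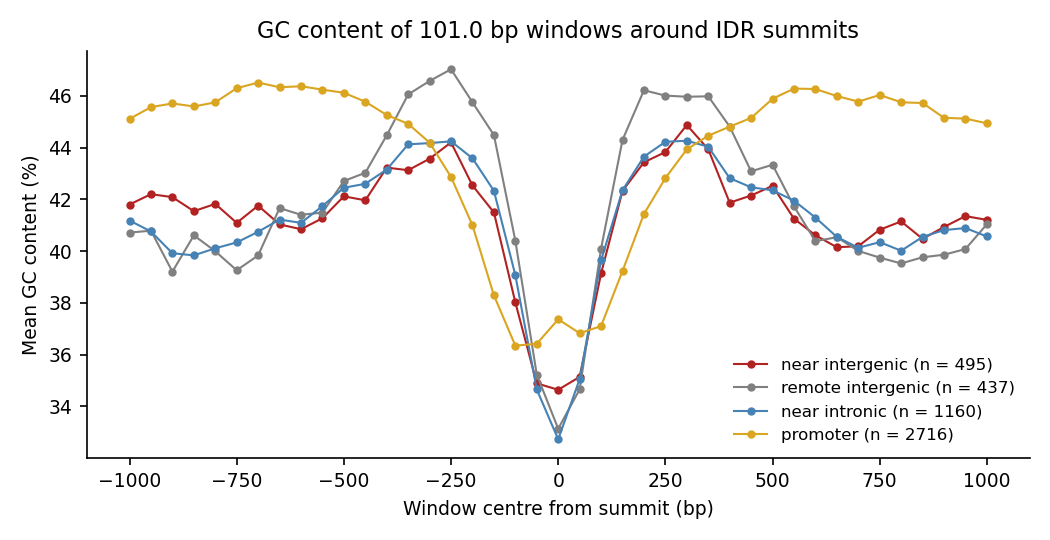
Mean GC content (y axis, %) of 101 bp windows by distance of the window centre from the summit (x axis, bp), for near intergenic, remote intergenic, near intronic and promoter IDR peaks. Near intergenic windows fall to a mean of 34.6% at the summit, against 42.1% and 42.5% at 500 bp on each side.

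Binding was called at fewer candidates here than at promoters. Of the 3297 pooled entries at near intergenic positions, 495 were IDR peaks, a share of 15.01% (Wilson 95% interval 13.8 to 16.3%). The share over all pooled entries was 18.4%. It was 13.1% at remote intergenic positions (adjusted p = 0.0217), 17.0% at near intronic ones (adjusted p = 0.0174) and 32.0% at promoters (adjusted p = 1.19e-82, Fisher's exact test, two-sided, adjusted by Benjamini-Hochberg (BH) over the 3 comparisons). The near intergenic share was thus 1.96 points higher than the remote one and differed from that of promoters by -17.0 points. The step to remote positions was 1.14 points (adjusted p = 0.200) and that to near intronic positions -1.57 points (adjusted p = 0.0991, Fisher's exact test) when the lower limit was set at 1000 bp.

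By score the near intergenic peaks stood below promoter peaks. Of the 495, 232 (46.9%) were among the 2754 IDR peaks with the highest score, against 54.2% of promoter peaks (adjusted p = 0.00839, Fisher's exact test, two-sided, BH over 3). The difference to promoter peaks was -7.37 points with a 95% interval of -12.1 to -2.58. Remote intergenic peaks reached 40.5% (adjusted p = 0.0827) and near intronic peaks 49.7% (adjusted p = 0.308, both Fisher's exact test), with intervals of the difference of -0.0173 to 12.7 and -8.09 to 2.38 points. In the replicates' own lists the median rank of near intergenic peaks was 2980, 2649 and 2834 in replicates 1, 2 and 3. That of promoter peaks was 2235.5, 2462.5 and 2229.5, so the near intergenic median was farther down the list in each of the 3, by 512 ± 290 ranks (SD, n = 3). An exact sign-flip test of 3 replicates cannot give a p below 0.25, the value found here, so it cannot decide on the difference. The same test gave 0.25 for the median ranks against remote intergenic and near intronic peaks. Among peaks found in both replicates 1 and 3 (386 near intergenic and 2241 promoter peaks), with the score still that of the pool of all 3, the difference between the shares of high-scoring near intergenic and promoter peaks was -6.34 points (adjusted p = 0.0551), and with a lower limit of 1000 bp it was -6.15 points (adjusted p = 0.0700, Fisher's exact test).

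Most near intergenic peaks were found in every replicate. The IDR list was made from these same replicates, so the selection itself favours a high share, which is no separate evidence that binding recurs. Each replicate's list was cut to its 5508 highest-scoring entries, and a peak was found there if an entry overlapped it by 1 bp or more. Of the 495 peaks, 349 (70.5%) were found in all 3 replicates, 107 in 2, 37 in 1 and 2 in none. Over all IDR peaks the share found in all 3 was 72.5%. By replicate 86.7%, 88.3% and 87.3% were found, a mean of 87.4 ± 0.816% (SD, n = 3). No difference to the other sets passed the test. The shares found in all 3 were 65.9% of remote intergenic (difference 4.60 points, 95% interval -1.38 to 10.6, adjusted p = 0.207), 73.5% of near intronic (-3.03 points, -7.86 to 1.62, adjusted p = 0.207) and 74.5% of promoter peaks (-3.98 points, -8.44 to 0.216, adjusted p = 0.200, all Fisher's exact test, two-sided). Without replicate 3 the difference to remote peaks was 7.15 points (adjusted p = 0.0415, Fisher's exact test), and without replicate 1 it was -0.281 points. Among all entries of the replicates' lists, 8 near intergenic peaks had no overlapping entry in at least 1 replicate.

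The strongest near intergenic peaks lay at genes of many kinds. Of the 100 highest-scoring IDR peaks 11 were near intergenic, and of the 20 highest none was, beside 8.99% of all IDR peaks. Remote intergenic, near intronic and promoter peaks made up 3, 18 and 63 of the 100, and 1, 5 and 14 of the 20. The first of them had rank 22 in the pooled list and ranks 15, 30 and 39 in replicates 1, 2 and 3 (mean 28 ± 12.1, SD, n = 3). It covered chr3R:12402947-12403324, between the ends of Sol1 and Cyp9f2, with a summit 1285 bp upstream of the TSS of DNAlig3, which encodes a DNA ligase. DNAlig3 is not a direct neighbour of that spacer, which is 437 bp long, so the name marks only the nearest start. For 488 of the 495 peaks the nearest TSS did belong to a gene that borders the spacer, and for 7 it did not. The second, chrX:12750804-12751669, was the widest near intergenic peak at 866 bp. Its ranks were 37, 51 and 21, it lay 4997 bp downstream of the start of CG4004, just inside the upper limit of the rule, and within 500 bp of a long non-coding RNA gene, lncRNA:Vinr.

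The gene tara was the only 1 with more than 1 of the 20 strongest peaks, and a further peak lay beside them. It encodes Taranis, a chromatin and cell cycle regulator. The peak at chr3R:16222024-16222709, 3155 bp upstream, had ranks 50, 27 and 37, the peak at chr3R:16224330-16224701, 1135 bp upstream, 142, 119 and 192, and the peak at chr3R:16221692-16222001, 3786 bp upstream, 273, 1415 and 442. The first was the strongest of the 3 and the second came next in replicates 2 and 3 as in replicate 1, while the third was far lower in replicate 2 than in the others. The spacer between mtSSB and tara in which all 3 lie is 20400 bp long and divergent, that is, both genes are transcribed away from it.

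The rest of the 20 strongest peaks lay at genes with unlike roles. A peak of rank 57 at chr2R:12984999-12985447 lay 4165 bp upstream of Psc, a subunit of a Polycomb complex, with ranks 63, 47 and 79 (mean 63 ± 16, SD, n = 3), and it held a Mef2 site. CycB, the mitotic cyclin B, had a peak 3347 bp downstream of its start at chr2R:22802761-22803168, between the ends of blw and CycB, with ranks 55, 28 and 48. RasGAP1, a negative regulator of Ras, had a peak 656 bp upstream at chr3L:9855761-9856192 with ranks 138, 69 and 98. The peaks of these 3 genes were high in every replicate. The insulin pathway's forkhead factor foxo had a peak 3324 bp upstream at chr3R:14053412-14053777 with ranks 183, 234 and 291, and the printed window shows its Mef2 site beside the summit.

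A peak of rank 74 lay at a developmental factor. The pair-rule and mesoderm gene slp2, a forkhead factor, had a peak 4321 bp upstream at chr2L:3832320-3832686 with ranks 109, 50 and 92 (mean 83.7 ± 30.4, SD, n = 3). It lies in the spacer of 9740 bp between slp1 and slp2. The C/EBP factor slbo had a peak 4509 bp downstream of its start, with ranks 201, 188 and 143, and stck, an adaptor of integrin adhesion, had a peak 1231 bp upstream with ranks 188, 180 and 209. The other genes of the 20 were CG31668, sp3, CG13321, CG43131, CG3149, CG17896, CG43389, CG33453 and hll, at pooled ranks from 51 for CG31668 to 282 for hll. The ranks in the 3 replicates were farthest apart, as a ratio, for sp3, with ranks 19, 193 and 141, and hll, with ranks 99, 362 and 955.

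**Figure D2:**
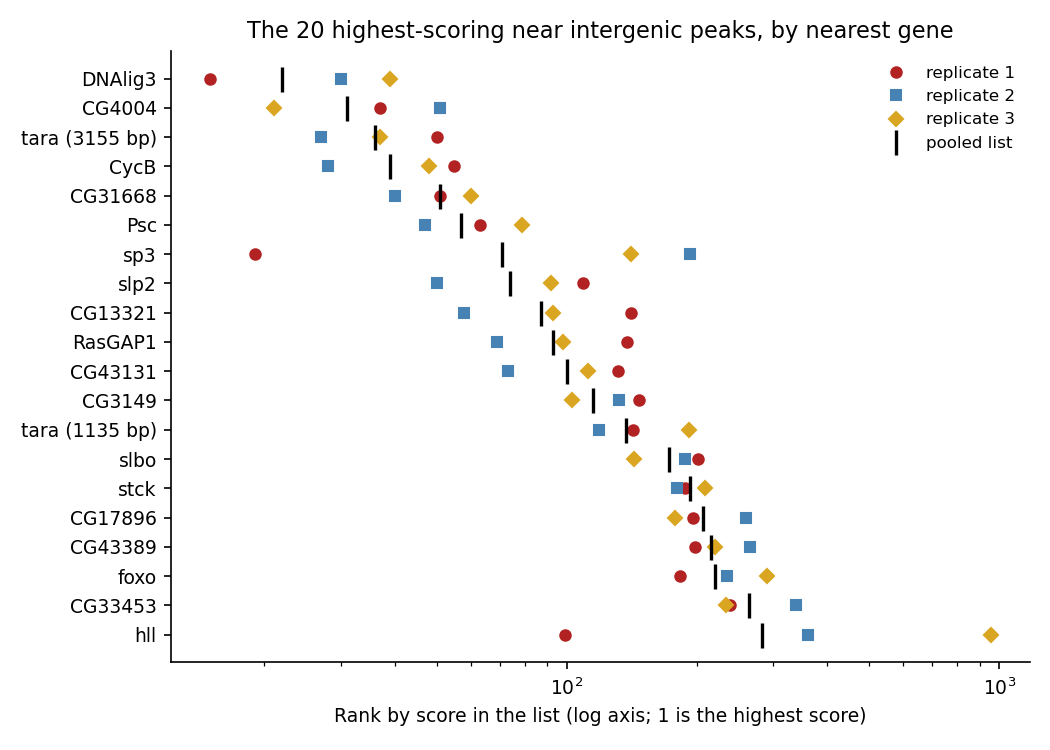
Rank by score (x axis, log scale, 1 is the highest) of the 20 highest-scoring near intergenic peaks in replicates 1, 2 and 3 and in the pooled list, one row per peak named by the nearest gene, with the distance to the TSS where a gene has more than one. The ranks of DNAlig3 are 15, 30 and 39, those of sp3 run from 19 to 193 and those of hll from 99 to 955.

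Each of the 4 mesoderm lists had genes with a peak, with pooled ranks from 406 at bin to 5446 at caup. The 495 peaks had 415 nearest genes, which is 2.98% of 13945 protein-coding genes. It is also 22.7% of the 1830 genes that were nearest to any pooled entry at such a position, so that most genes had no candidate to begin with. Of 20 heart and dorsal mesoderm genes 2 were the nearest gene of a peak, of 12 visceral mesoderm genes 3, of 12 early mesoderm and FGF genes 2, and of 17 somatic muscle identity genes 2. Counted over genes with a candidate entry, these were 2 of 12, 3 of 7, 2 of 6 and 2 of 8. These shares are 16.7%, 42.9%, 33.3% and 25%, beside 22.7% over all such genes, so the heart list was below it. The median pooled rank of the lists' peaks was 2252.5, 988.5, 3157.5 and 3261, beside 2896 over all 495. As shares of all listed genes the counts were 10%, 25%, 16.7% and 11.8%, beside 2.98% over all, a base that includes genes without a candidate entry. The counts are a description, and the length of each gene's spacer was not taken into account.

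In the heart list the genes were Doc2, a T-box factor of the dorsal mesoderm, and zfh1, a zinc finger homeodomain factor. The Doc2 peak, 4555 bp upstream at chr3L:9023586-9024015, had ranks 3539, 1566 and 2075 in replicates 1, 2 and 3. The zfh1 peak, 4471 bp upstream at chr3R:30761240-30761669, had ranks 2984, 1510 and 2959. Both were among the 2754 IDR peaks with the highest score, at rank 2155 and 2350, and both ranked highest in replicate 2.

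Of the 4 mesoderm lists, the visceral one held the peak with the highest score. The forkhead gene bin, which encodes Biniou, had a pair of them 1332 and 1123 bp upstream, at chr3L:6989050-6989314 and chr3L:6989323-6989593, with pooled ranks 406 and 939. Replicate 2 has a single entry of rank 557 over both, and the first has no entry in replicate 1, so they are not separate in every replicate. In replicates 1 and 3 the entries over the second had ranks 289 and 624. The forkhead gene FoxL1 had a peak 1922 bp upstream at chr3L:4016856-4017074 with ranks 1629, 728 and 1107. The gene slp1, the partner of slp2, had a peak 2226 bp downstream of its start at chr2L:3827858-3827982 with ranks 1698, 1499 and 1758 (mean 1652 ± 136, SD, n = 3).

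In the early mesoderm list the peaks were weaker or less alike between replicates. A peak 3935 bp upstream of zfh2, a zinc finger homeodomain gene on arm 4, had ranks 640, 2180 and 6713, so that the SD of 3157 was about as large as the mean of 3178. The peak at esg, which encodes the Snail-family factor Escargot, had ranks 3934, 6116 and 5719. In the somatic muscle list, Poxm, a paired-box gene of muscle progenitors, had a peak 582 bp upstream at chr3R:8334290-8334468 with ranks 998, 767 and 1787, and caup, a homeobox gene of the Iroquois complex, one with ranks 3913, 4341 and 14216. The Poxm entry was among the first 2000 in all 3 replicates, and caup was near the end of the IDR list in the pooled data, at rank 5446.

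The shares in the other lists ran from 0 to 25% of genes, beside 2.98% over all genes and 22.7% over all genes with a candidate entry. In the signalling list (Dpp, Wg, EGFR, Notch) 4 of 26 genes were nearest to a peak, and 4 of the 10 with a candidate entry. They were aop, an ETS repressor of the EGFR pathway, with 3 peaks, fz, a Wnt receptor, with 2, pnt, an ETS activator, and dpp, the BMP ligand. The strongest aop peak, 1529 bp upstream at chr2L:2180100-2180407, had ranks 570, 475 and 467 (mean 504 ± 57.3, SD, n = 3) and holds the Mef2 site printed above. Of 16 heart matrix and guidance genes 4 were nearest to a peak, and 4 of the 8 with a candidate entry. These were the guidance receptors robo2 and unc-5, the laminin subunit LanB2 and the integrin scb. The robo2 peak, 2515 bp upstream, had ranks 992, 645 and 1133, and the unc-5 peak, 828 bp upstream, had ranks 878, 702 and 1487.

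Of 23 genes of muscle structure and fusion 2 were nearest to a peak, the actin genes Act87E and Act57B. Act87E had ranks 1673, 1067 and 1371, and Act57B, a muscle actin whose peak 4108 bp upstream holds a Mef2 site, had ranks 3917, 4522 and 3396. Of 19 Hox and pair-rule genes 2 were nearest to a peak, slp1 and slp2. Of 10 haemocyte genes 1 was, the GATA factor srp, and of 10 gut and endoderm genes 2 were, srp again and bowl. The srp peak had ranks 3503, 2870 and 6725, and the bowl peak 4431, 3996 and 6252. Of 92 cytoplasmic ribosomal protein genes, 2 were nearest to a peak, RpS23 and RpS15Aa (2.17% of the list). Counted over genes with a candidate entry, muscle structure and fusion had 2 of 8, Hox and pair-rule 2 of 13 and haemocytes 1 of 1. Gut and endoderm had 2 of 7 and ribosomal proteins 2 of 14 (14.3%), beside 22.7% over all such genes. None of 18 nervous system genes and none of 12 epidermis and trachea genes was nearest to a near intergenic peak, and only 6 and 5 of them had a candidate entry.

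Several genes had a cluster of peaks. Of the 415 nearest genes, 346 had 1 near intergenic peak, 59 had 2 and 10 had 3 or more. Rh5, which encodes a rhodopsin of the eye, had 4, of which a pair lay upstream and a pair downstream of its start. Their ranks in replicates 1, 2 and 3 were 544, 738 and 712 for the strongest and 3759, 4602 and 21002 for the weakest. Besides tara and aop, the genes with 3 were CG4218, CG42808, CG43354, Cyt-c1L, NimC3, soti and Ugt37C1. NimC3 is a receptor of the Nimrod family, Cyt-c1L a cytochrome c1-like gene, and soti, known as scotti, acts in sperm individualisation. A pair of the soti peaks share 1 entry in each replicate, with ranks 1574, 1338 and 1478, so that 3 pooled peaks there stand for 2 in the replicates. In all, 8 of the 495 peaks share their interval with another near intergenic peak.

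Near intergenic binding went together with a bound promoter less often than near intronic binding did. The gene nearest to the summit had an IDR summit within 500 bp of a TSS of its own in 117 of 495 cases (23.6%). Over all protein-coding genes the share was 24.3%, which is close to it. The share was 48.0% for near intronic peaks (adjusted p = 9.03e-21) and 14.9% for remote intergenic peaks (adjusted p = 0.000896, Fisher's exact test, two-sided, BH over 2). Near intergenic peaks were thus 8.76 points above the remote set and differed from the near intronic one by -24.4 points. Any TSS of a gene could count, and the number of TSSs per gene was not taken into account. Among higher-scoring peaks the difference to the remote set was 5.85 points (adjusted p = 0.0606, Fisher's exact test). The share was 33.0% for the 109 near intergenic summits within 1000 bp of the TSS, 21.0% for the 162 between 1000 and 2000 bp, and 21.0% for the 224 beyond.

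The near intergenic peaks lay closer to the TSS than weaker entries at such positions. The 2711 pooled entries that met the same position rule and overlapped no IDR peak served as the comparison. The nearest TSS was within 2000 bp for 271 of the 495 peaks (54.7%, 95% interval 50.3 to 59.1%) and for 45.5% of the other entries, a difference of 9.27 points (adjusted p = 0.000479, Fisher's exact test, two-sided, BH over 3). For the 232 higher-scoring peaks it was 6.67 points (adjusted p = 0.0819, Fisher's exact test). The median distance was 1815 bp for the peaks and 2209 bp for the other entries. The summit lay upstream of the nearest TSS in 377 peaks (76.2%) and in 71.7% of the other entries (adjusted p = 0.0431, Fisher's exact test). That difference did not pass the test when the peaks were narrowed to those found in any pair of the replicates (3.68 to 3.94 points, adjusted p = 0.114 to 0.145, Fisher's exact test). The rule leaves out summits inside protein-coding transcripts, so both sets lack downstream positions within the gene, and the high upstream shares alone show no preference. By type of spacer, 186 peaks (37.6%) lay between divergent genes, 244 (49.3%) between genes in tandem and 65 (13.1%) between convergent ones, against 34.9%, 50.5% and 14.6% of the other entries. The spacers had a median length of 7426 bp for the peaks and 9124 bp for the other entries.

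**Figure D3:**
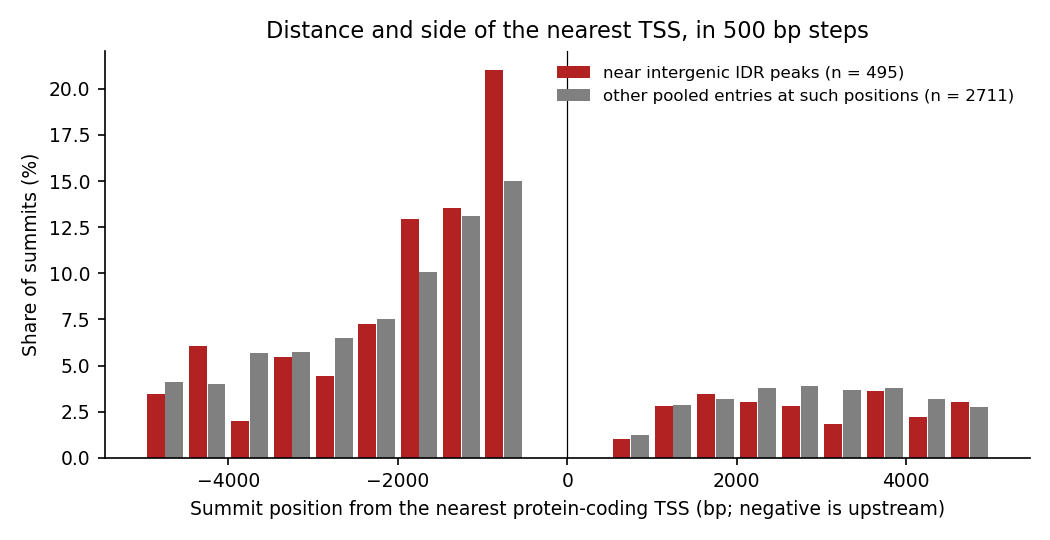
Share of summits (y axis, %) by position from the nearest protein-coding TSS in steps of 500 bp (x axis, bp, negative is upstream), for 495 near intergenic IDR peaks beside 2711 other pooled entries at such positions. The step of 500 to 1000 bp upstream holds 21.0% of the peaks, against 15.01% of the other entries. The bars downstream are low in both sets, as the rule leaves out summits inside protein-coding transcripts.

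Many of the peaks were not far from a non-coding gene. Of the 495 summits, 113 lay in or at most 500 bp from a non-coding gene (22.8%), and so did 16.6% of the other entries, a difference of 6.27 points (95% interval 2.50 to 10.4, adjusted p = 0.00154, Fisher's exact test, two-sided, BH over 3). With an upper limit of 2000 bp the difference was 5.62 points (adjusted p = 0.0883, Fisher's exact test). In 104 cases it was a gene of the ncRNA class, in 3 a tRNA, in 3 a snoRNA and in 4 a pseudogene, and a summit can lie near more than 1 kind. The summit was inside an ncRNA gene in 51 (10.3%), close to the 9.55% of the other entries. It was in an annotated transposable element in 3 (0.606%), against 1.22% of the other entries. Named ones, picked after their values were seen, include lncRNA:bxd of the bithorax complex, lncRNA:flam, the flamenco piRNA locus, lncRNA:Hsromega of the heat shock response and lncRNA:roX1 of dosage compensation. The pooled ranks of these 4 were 1764, 1618, 1486 and 4252. The peaks lay on every arm, with 120 on 2L, 83 on 2R, 115 on 3L and 106 on 3R. Arm X had 66 and the small arm 4 had 5. Arm 2L held 24.2% of the peaks and 19.03% of the other entries, and 3L held 23.2% and 22.8%. The shares were 16.8% and 17.3% on 2R, 21.4% and 24.3% on 3R, and 13.3% and 15.8% on X. On arm 4 they were 1.01% and 0.812%. The differences by arm were not tested.

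The canonical Tinman site had no excess at near intergenic summits that passed the test. It was present within 50 bp of the summit in 22 of 495 peaks (4.44%, 95% interval 2.95 to 6.64%) and in 20 of the windows 500 bp to the left (4.04%). The difference was 0.404 points with a 95% interval of -2.10 to 2.91 (adjusted p = 1, exact McNemar test, two-sided, BH over 14 motifs). Over all IDR peaks 4.23% of summits held it. Against the right flanks the difference was 2.42 points (adjusted p = 0.220), and in windows of 100 bp to each side it was 4.24 points, with 10.3% of summits and 6.06% of left flanks (adjusted p = 0.0710, exact McNemar test). Among the 232 higher-scoring peaks it was -2.59 points (adjusted p = 0.438, exact McNemar test). In the replicates' own highest entries at such positions the difference was 0.620, -0.38 and 0 points. Among the other sets 6.86% of remote intergenic, 4.22% of near intronic and 3.28% of promoter summits held it, and none of these differences passed the test (adjusted p = 0.390, 1 and 0.512, Fisher's exact test, two-sided, BH over 42 comparisons). The form TCAAGTG alone was at 10 summits and 10 flanks.

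The 22 peaks with a Tinman site had a median pooled rank of 3640, beside 2829 for those without, a difference that was not tested. Only CG17896 was among the 20 strongest, with ranks 196, 259 and 178 and the site 44 bp from its summit, at the edge of the printed window. It lay 503 bp upstream of the TSS. The next were Asator on arm 4 with ranks 2249, 1424 and 1730, CG15429 with 3131, 1215 and 3151, CG43347 with 2918, 2141 and 2244, and RpS15Aa with 2577, 2183 and 4945. None of the peaks of the heart, visceral, early mesoderm and somatic lists was among these 5.

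Mef2 sites were more frequent at the summits than beside them. Mef2 acts with Tinman in heart and muscle, and its site was present at 41 near intergenic summits (8.28%, 95% interval 6.16 to 11.0%) and in 15 left flanks (3.03%), a difference of 5.25 points (adjusted p = 0.00750, exact McNemar test, two-sided, BH over 14 motifs). Over all IDR peaks 6.45% of summits held it. The difference was 4.96, 4.37 and 5.43 points among the highest entries of replicates 1, 2 and 3 (mean 4.92 ± 0.528, SD, n = 3). At other positions the mean was 0.573 ± 1.82 points for remote intergenic, 4.18 ± 0.742 for near intronic and 3.98 ± 0.203 for promoter entries (SD, n = 3). The site is made up mostly of A and T, and summit windows held less GC than flanks (medians 33.7% and 42.6%). The part of base composition in the Mef2 difference was not tested. The differences to other sets did not pass the test, with 4.81% of remote intergenic, 6.98% of near intronic and 6.30% of promoter summits (adjusted p = 0.248, 0.846 and 0.390, Fisher's exact test, two-sided). The strongest with a site were Psc, foxo, l(3)neo38, a zinc finger gene with ranks 311, 345 and 400, aop, and CG42808 with ranks 669, 1099 and 1352. By the exact McNemar test, the difference was 1.21 points in windows of 25 bp to each side (adjusted p = 0.666), 6.90 points in the 232 higher-scoring peaks (adjusted p = 0.0521), 5.90 points within 2000 bp of the TSS (adjusted p = 0.127), and 2.36 points with non-coding genes counted as genes (adjusted p = 0.266).

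The test against the flanks was also passed by 2 further motifs, by a small margin. The homeodomain core was present at 51 summits (10.3%) and 29 left flanks (5.86%, adjusted p = 0.0482, exact McNemar test, two-sided). Over all IDR peaks 8.66% of summits held it, and against the right flanks, of which 34 held it, the adjusted p was 0.220 (exact McNemar test). Among the replicates' highest entries its mean difference was 3.41 points at near intergenic, 2.31 at remote intergenic, 3.25 at near intronic and 3.25 at promoter positions. This core is all A and T, and the part of the lower GC content at summits was not tested. The CTCF core was present at 13 summits (2.63%) and 2 left flanks (0.404%, adjusted p = 0.0482, exact McNemar test), with 1.16% over all IDR peaks. GATA sites were at 22.8% of summits and 17.4% of flanks (adjusted p = 0.140, exact McNemar test). Zelda sites, CAGGTAG, were at 5 summits and no flank (adjusted p = 0.170, exact McNemar test), the forkhead site was at 6.06% of summits and 6.87% of flanks, and the T-box site AGGTGTGA was at none of either (upper 95% limit 0.770% of summits). The homeodomain difference of 4.44 points was 2.22 points in windows of 25 bp (adjusted p = 0.340) and 6.47 points among the 232 higher-scoring peaks, a smaller set (adjusted p = 0.117, exact McNemar test). The CTCF difference of 2.22 points was 0.777 points with a lower limit of 1000 bp (adjusted p = 0.750, exact McNemar test). It was 2.33, 2.59 and 2.62 points in the 386, 386 and 382 peaks found in both other replicates when replicate 1, 2 or 3 was left aside (adjusted p = 0.0749, 0.0604 and 0.0604, exact McNemar test).

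**Figure D4:**
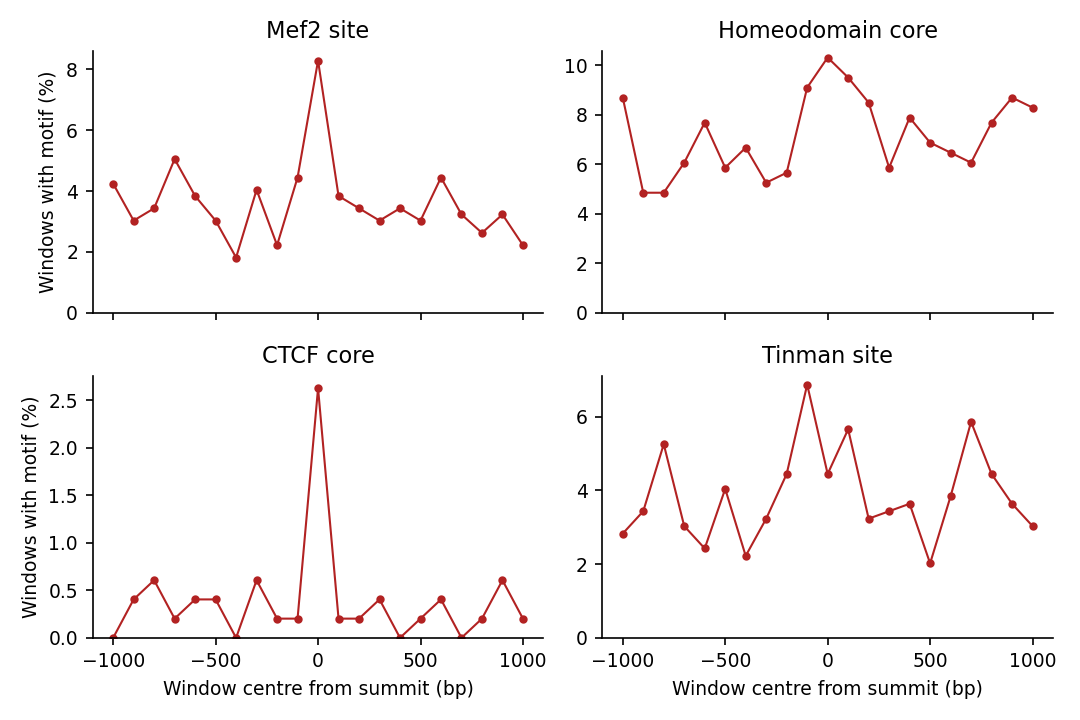
Share of 101 bp windows (y axis, %) that hold a Mef2 site, a homeodomain core, a CTCF core or a Tinman site, by distance of the window centre from the summits of the 495 near intergenic peaks (x axis, bp). The Mef2 site reaches 8.28%, the homeodomain core 10.3% and the CTCF core 2.63% at the summit, each above every other window. For the homeodomain core the windows 100 bp to the left and right come close, at 9.09% and 9.49%. The Tinman site is at 4.44% at the summit. Its highest window is 100 bp to the left, at 6.87%, with 5.66% at 100 bp and 5.86% at 700 bp to the right.

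CTCF cores were more frequent at near intergenic than at near intronic and promoter summits. The share of 2.63% compares with 0.603% of near intronic (adjusted p = 0.0251) and 0.884% of promoter summits (adjusted p = 0.0251, Fisher's exact test, two-sided, BH over 42 comparisons), and with 2.06% of remote intergenic summits (adjusted p = 1). These 13 peaks had a median distance of 684 bp from the TSS. With a lower limit of 1000 bp the differences were 0.677 and -0.130 points (adjusted p = 0.719 and 1, Fisher's exact test). Among higher-scoring peaks they were 2.67 and 2.20 points (adjusted p = 0.0644 and 0.130, Fisher's exact test), and with genes of all biotypes 1.53 and 1.15 points (adjusted p = 0.124 and 0.253, Fisher's exact test). The strongest was 752 bp upstream of jp, the junctophilin gene, at chr2L:9567364-9567659, with ranks 81, 807 and 938 in replicates 1, 2 and 3. In 12 of the 13 the rank was best in replicate 1, against 119 of all 495 near intergenic peaks. The median ranks of the 13 were 1578, 3021 and 3289. Among the 51 IDR peaks elsewhere with a CTCF core 32 (62.7%) ranked best in replicate 1, against 29.8% of all 5013 elsewhere. Peaks with a Mef2 site had no such order, with medians of 2976, 2223 and 2843. These counts by replicate were chosen after the values had been seen and carry no test.

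**Figure D5:**
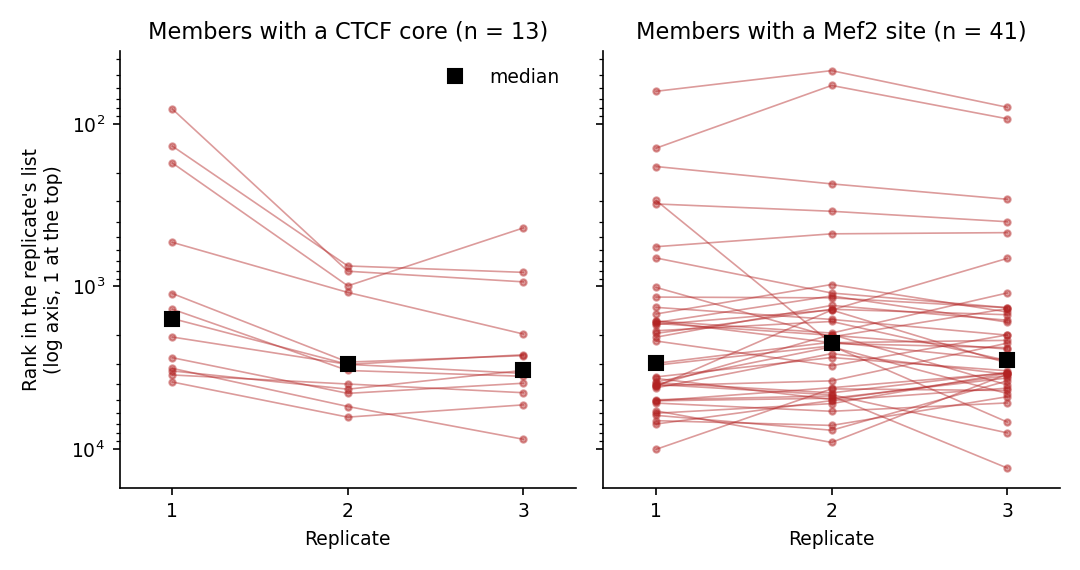
Rank (y axis, log scale, 1 at the top) in replicates 1, 2 and 3 (x axis) of the 13 near intergenic peaks with a CTCF core and the 41 with a Mef2 site. Each line is 1 peak and squares are medians, 1578, 3021 and 3289 with a CTCF core and 2976, 2223 and 2843 with a Mef2 site.

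Motifs of housekeeping promoters were rare at near intergenic summits, as they were in the other 2 sets outside promoters. The DRE, TATCGATA, which DREF binds, was at 3 summits (0.606%) and at 5.04% of promoter summits (adjusted p = 1.01e-05, Fisher's exact test). The M1BP site, GGTCACAC, was at 1 summit (0.202%) and at 2.65% of promoter summits (adjusted p = 0.00224, Fisher's exact test, two-sided, BH over 42 comparisons). At remote intergenic and near intronic summits the DRE was at 0.229% and 0.0862%, and the M1BP site at 0% and 0.172%. The M1BP difference of -2.45 points was -1.33 points among higher-scoring peaks (adjusted p = 0.603), -1.38 in windows of 25 bp (adjusted p = 0.107) and -2.04 with a lower limit of 1000 bp (adjusted p = 0.0790, Fisher's exact test). It was -1.90 and -2.06 points among peaks found in both other replicates when replicate 1 or 2 was left aside (adjusted p = 0.0705 and 0.0508, Fisher's exact test). That of the DRE passed under every alternative tried.

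The sequence that stood out most over the flanks was none of the motifs searched. When all 7-mers were ranked by summits over the mean of both flanks, with 10 added to each count, ACTGAGA with its reverse complement TCTCAGT came first, at 29 summits (5.86%) and a mean of 4.5 flanks. AT-rich 7-mers such as AATAGTA and ATTACTA followed, and parts of the extended CTCF site, CCACCTA and ATGGCGC, had ranks 6 and 7 (16 and 18 summits). The Tinman 7-mers TTAAGTG and TCAAGTG had ranks 1289 and 1880. The first 7-mer was chosen by these counts, which therefore carry no test. It was also at 3.66% of remote intergenic, 2.84% of near intronic, 3.06% of intronic summits over 5000 bp from a TSS, and 1.18% of promoter summits. Over the 5013 IDR peaks outside the near intergenic set it was at 102 summits and 51 left flanks (p = 3.14e-05, exact McNemar test, two-sided, added after seeing the data). The 29 peaks had a median pooled rank of 3427, beside 2896 over all 495, and their strongest, at Cpr76Ba, had ranks 175, 1747 and 670.

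The ranks at the edges of the rule varied widely on the inside. Just inside the lower limit, peaks 501 bp from stv and 502 bp from dmGlut had pooled ranks 733 and 3874, and just outside it peaks 486 bp from TpnC47D and 487 bp from CG15249 had ranks 5018 and 5330. Just inside the upper limit were CG4004 at 4997 bp and CG12290 at 4960 bp, with ranks 31 and 4484, and just outside were Tollo at 5031 bp and CG43195 at 5131 bp, with ranks 4013 and 4275. Among the 100 strongest near intergenic peaks the spread of ranks over the replicates was widest at Cpr76Ba, L, CG8519, CG34342 and 1 of the CG42808 peaks. The CG34342 peak had ranks 471, 4102 and 2154, and the CG8519 peak 296, 2246 and 2383. Of the 5, 4 ranked best in replicate 1.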

How the data were processed

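The only measure is a score, the peak caller's signal value for each entry of the narrowPeak lists as deposited. Per the notes deposited with the lists, those of the replicates and of the pool hold peaks and background as input for the IDR analysis, and the last list holds what passed its threshold. The aligner, caller, control and threshold are not stated (not given in the sources used here). Without counts, the precision of a single score cannot be stated. Lists on dm6 were used and those on dm3 were left out.

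Summits were placed against protein-coding transcripts of Ensembl release 115 (BDGP 6.54) on 2L, 2R, 3L, 3R, 4 and X. Sequence came from RefSeq Release 6, in windows of 101 bp. Near intergenic peaks were compared with 3 other sets of IDR peaks and with 2711 pooled entries outside IDR peaks. Of the whole pooled list, 1088 entries outside the IDR list share bases with 1 of its peaks, and any at near intergenic positions were left out of that set. Fisher's exact test was used between sets and the exact McNemar test between summit and flank, two-sided, with BH adjustment within each family at 0.05. Shares carry Wilson 95% intervals, differences of shares Newcombe or, for summit and flank, Wald intervals. Each motif of 14 was searched on both strands. The samples form 1 group, and replicate numbers come from the labels.

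Genes were named by a rule: the nearest genes of the 20 highest-scoring peaks, all peaks of 4 mesoderm lists, the 5 strongest with a Tinman and with a Mef2 site, the 2 strongest of every other list, genes with 3 or more peaks, the peaks at each limit, and the 5 of the strongest 100 with the widest spread. CTCF examples, the 7-mer examples, named non-coding genes and further Mef2 examples were picked afterwards. The members and lists were chosen with earlier results of these data known. Alternatives were other limits, gene sets, windows, overlaps and replicate sets. Tests were checked on simulated data. Python 3.11.15, pandas 2.3.3, scipy 1.17.1, statsmodels 0.14.6 and matplotlib 3.10.9 were used.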

Additional observations from a re-analysis of the deposited data

How the results depend on the processing

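No paired analysis was possible because the study has 1 group, so replicate numbers pair no samples; the tests of summit against flank pair windows of a peak. Values are near intergenic minus the other set in percentage points, and the cause of a change was not tested. Of 309 values under alternatives, 223 kept their direction and side of the threshold. A count of motifs that went from 3 to 2 was taken as kept. With a lower limit of 1000 bp, the share of entries in the IDR list differed by 1.14 points from remote and -1.57 from near intronic positions, the share of high scores by -6.15 from promoters, and the upstream share by 3.02, none past the threshold. With an upper limit of 2000 bp, the values that missed it were -2.05 for the IDR share against near intronic positions, 2.77 for the upstream share and 5.62 for non-coding genes, and the share within 2000 bp could not be computed. With genes of all biotypes, the upstream share gave 2.44 and non-coding genes 2.05, a feature that this setting itself removes. In the higher-scoring peaks, the bound promoters gave 5.85 against remote peaks, the upstream share 3.72 and the share within 2000 bp 6.67, all short of the threshold, while peaks found in all replicates gave -1.32 against remote and, past it, -2.32 against near intronic peaks.

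Leaving out a replicate narrowed each set to peaks found in both others, with the pooled score and IDR list kept. Without a replicate in turn, the difference in high scores to promoters ran from -9.65 to -6.34, the upstream share from 3.68 to 3.94, and peaks found in the replicates that were left from -0.281 to 7.15 against remote peaks. With every entry of the lists the last was -0.0143. The count of motifs above the flanks, 3, became 0 with genes of all biotypes, with an upper limit of 2000 bp, in higher-scoring peaks and in windows of 25 bp. It became 1 with peak midpoints, and 2 with a lower limit of 1000 bp, against right flanks and without each replicate in turn. The count above other sets, 2, became 0 with genes of all biotypes, with a lower limit of 1000 bp and in higher-scoring peaks, and 1 with midpoints, an upper limit of 2000 bp and 100 bp windows. The count below other sets, 2, became 1 with a lower limit of 1000 bp, in higher-scoring peaks and in 25 bp windows, and ran from 1 to 2 without a replicate.

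Single motifs reversed as follows, none past the threshold. Mef2 sites gave -0.601 against near intronic and -0.0613 against promoter peaks with genes of all biotypes, -0.551, -0.765 and -0.632 against remote, near intronic and promoter peaks in 25 bp windows, and -1.82 against promoter peaks in 100 bp windows. CTCF cores gave -1.02 against remote and -0.130 against promoter peaks with a lower limit of 1000 bp, and -0.938 against remote peaks in higher-scoring ones. GATA sites gave -1.48 against flanks with an upper limit of 2000 bp. Tinman sites gave -2.59 against flanks, -2.18 against near intronic and -1.71 against promoter peaks in higher-scoring ones, -0.202 against flanks and -0.798 against near intronic peaks in 25 bp windows, and from -0.650 to 0.282 against near intronic peaks without a replicate. They moved the other way, to 4.24 against flanks and 3.42 against promoter peaks (adjusted p = 0.0960, Fisher's exact test) in 100 bp windows, and to 2.42 against right flanks. The missing counts limit every statement on strength to ranks.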
